A study of Mus musculus with 8 samples.

Results

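The miRNAs described here are made from hairpins that lie within the gene Clcn5 on the mouse X chromosome, a cluster that holds miR-188, miR-362, miR-500, miR-501, miR-532 and miR-660. The 8 members are mmu-miR-188-5p, mmu-miR-362-3p, mmu-miR-362-5p, mmu-miR-500-3p, mmu-miR-501-3p, mmu-miR-532-5p, mmu-miR-532-3p and mmu-miR-660-5p (the species prefix is left out below), chosen by host gene and found on the arrays by miRNA name. Probes for 7 of them were read among 1881 mouse miRNAs, and miR-660-5p was not analysed here. The cluster was picked out with the differences between injured and sham kidneys already known, so every change, fit value and p below is a description and not independent support. Detection did not decide membership, since miR-501-3p was detected on 0 of 8 arrays.

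The samples were kidneys of male C57BL/6 mice aged 9 weeks, 4 after ischemia-reperfusion injury (IRI), a model of acute kidney injury, and 4 after sham surgery. In the IRI group the right kidney was removed and the vessels of the left kidney were clamped for 25 or 45 min, with harvest after 12 or 24 h. Clamp and harvest times are not given per sample. In sham mice the abdomen was opened and nothing was removed or clamped, so nephrectomy and ischemia cannot be told apart. Total RNA from 30 mg of kidney, 100 ng per array, was labelled at its ends with the dye Cy3 and put on single-colour Agilent miRNA arrays. Nothing in the labels says that the samples came from separate animals, and p-values reflect sample-to-sample spread alone, which may be technical. Samples are numbered as in their titles, from sham 1 to sham 6 and from IRI 1 to IRI 18.

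Clcn5 encodes ClC-5, a chloride-proton exchanger of endosomes that is abundant in the proximal tubule and needed there for the uptake of filtered protein; its loss causes Dent disease. An intronic miRNA is often transcribed with its host gene, after which each hairpin is cut out and processed on its own. The hairpin yields a 5p and a 3p arm, of which the more stable is usually loaded into Argonaute. The seed, bases 2 to 8 of the mature miRNA, sets most of its choice of target mRNAs.

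Mature sequences were taken from RefSeq (GRCm38.p6), where 6 of the 8 members matched, and are printed 5′ to 3′ with the seed in capitals. They are shown because the seeds tell which members could share targets, and because the 3′ ends are what the array probes bind.
miR-188-5p: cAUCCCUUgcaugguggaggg
miR-362-5p: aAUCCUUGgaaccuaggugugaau
miR-362-3p: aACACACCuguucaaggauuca
miR-500-3p: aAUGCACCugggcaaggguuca
miR-501-3p: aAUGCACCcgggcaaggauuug
miR-532-3p: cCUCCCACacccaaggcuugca
Among the members printed, miR-500-3p and miR-501-3p share a seed, AUGCACC, and have the same base at 18 of 22 positions. Counted from the 5′ end of miR-500-3p, they differ by U9C, G18A, C21U and A22G. The seed of miR-188-5p, AUCCCUU, occurs in 1 other mature mouse miRNA of the table, miR-7061-3p, and that of miR-362-3p in miR-329-3p; both of these were detected on 0 of 8 arrays. The opposite arm of the miR-500 hairpin, miR-500-5p, has the seed of miR-362-5p, AUCCUUG, and was also detected on 0 of 8 arrays.

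The miR-188 hairpin is printed because its 5p arm carries the largest change in the cluster; capitals mark the 5p arm and then the 3p arm.
Mir188: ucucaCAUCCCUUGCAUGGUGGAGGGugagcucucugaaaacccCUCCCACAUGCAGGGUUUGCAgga
In the RefSeq table the hairpins that matched run along the minus strand of X in the order Mir532, Mir188, Mir362, Mir501 and Mir500, all inside the span of Clcn5. Mir188 starts 345 bases after Mir532, the closest neighbours among those matched. Mir362 follows 5942 bases later, Mir501 630 bases after that, and Mir500 another 3468 bases on.

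All 8 arrays lay on 1 slide and were read in 1 scan. Row 1 of the slide held the sham kidneys and row 2 the IRI kidneys, so row and group cannot be told apart. Each of 4 slide columns held 1 array of either group. Between 327 and 379 miRNAs were detected on sham arrays and between 393 and 447 on IRI arrays, and the 75th percentile of signal was 356 to 456 in sham and 445 to 562 in IRI. Signals below are divided by that percentile and then rescaled ("scaled signal"), and a change is thus measured against the array as a whole. The 6 kidney tubule markers, miR-192-5p and miR-194-5p among them, were detected on all arrays. Relative to the array 6 of 6 were called lower in IRI, as were 36.7% of all 379 tested miRNAs. Their summed scaled signal was 19395 to 22147 in sham and 14126 to 16081 in IRI. Without scaling only 1 of all tested miRNAs was called lower, so these calls depend on the scaling. In whole kidney, fewer cells of a type and less miRNA per cell cannot be told apart.

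miR-188-5p rose in injured kidneys, while miR-362-3p and miR-532-5p fell by a smaller amount relative to the array. miR-500-3p, miR-362-5p and miR-532-3p did not pass the test, and miR-501-3p was not measurable. Of the 6 members tested, 1 was called higher, 2 lower and 3 not called (limma, Benjamini-Hochberg over all 379 tested miRNAs, threshold 0.05). Across all tested miRNAs 12.1% were called higher and 36.7% lower, 48.8% in either direction. The median log2 change was -0.20 over the 6 members and -0.11 over all tested miRNAs. Because each group is set against its array's own percentile, the split between rises and falls moves with the scaling. It was 46 higher and 139 lower with the percentile, 53 and 1 without scaling, and 72 and 2 when scaled to RNAs spiked in at labelling (below, the spike-ins). The median of all tested miRNAs was 0.17 without scaling, 0.19 with the spike-ins and -0.22 with the percentile over all miRNAs.

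**Figure D1:**
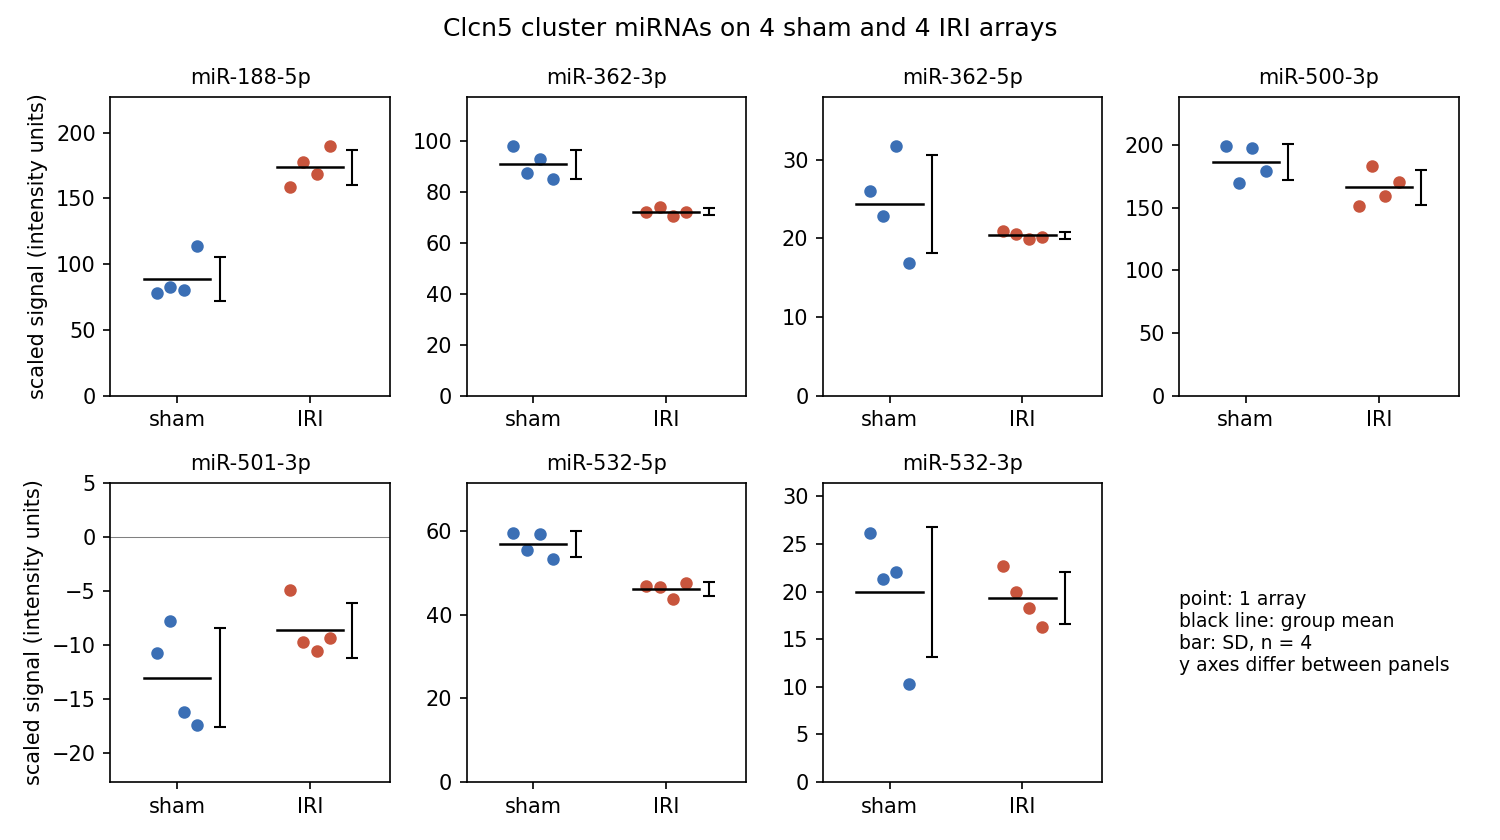
Scaled signal of 7 members on each of 4 sham (blue) and 4 IRI (red) arrays, in panels with their own y axes; lines are group means and bars SD. The 4 IRI points of miR-188-5p lie between 159 and 190, all above the sham points, which reach 114, whereas those of miR-362-3p and miR-532-5p lie below sham and those of miR-501-3p below 0.

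miR-188-5p had scaled signals of 78.0, 82.4, 80.4 and 114 on sham arrays 1, 2, 3 and 6, and of 159, 177, 169 and 190 on IRI arrays 1, 2, 3 and 18. Every IRI array lay above every sham array, and sham 6 stood above the other sham arrays, which were close together. The means were 88.7 ± 16.9 in sham and 173 ± 13.2 in IRI (SD, n = 4). The fitted log2 change was 0.98 ± 0.13, or 1.98-fold (SE; 95% interval 0.68 to 1.28; adjusted p = 0.00108, limma). By size of change it ranked 22 of 379, from the highest rise down. IRI values lay wholly above sham values for 10.6% of all tested miRNAs. Before scaling the groups were also apart, with unscaled signals of 66.5 to 90.5 in sham and 174 to 222 in IRI. Within slide columns 1 to 4 the log2 difference was 1.02, 1.11, 1.07 and 0.73, higher in IRI in 4 of 4. With normexp background correction the groups overlapped and the call ended (log2 change 0.20, adjusted p = 0.0831, limma). That correction adds an offset of 50 to each spot and put the miR-188-5p means at 356 in sham and 407 in IRI. By the same correction miR-501-3p, detected on no array, had means of 259 and 219.

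The array reads miR-188-5p with 4 probes of 10, 11, 12 and 13 bases, which pair with its 3′ end and not with its seed. The longest is printed as the array's design gives it, 5′ to 3′; it pairs with bases 9 to 21 of the miRNA, and the shortest with bases 12 to 21.
longest miR-188-5p probe: ccctccaccatgc
The probes gave folds of 2.09, 2.12, 1.97 and 1.78 from the shortest to the longest, and on each of them all IRI arrays lay above all sham arrays. Most spots of a probe were above background on 4 of 4 IRI arrays for each probe, and on 2, 3, 3 and 4 of 4 sham arrays. Thus the sham level of miR-188-5p is the sum of dim probes, averaging 20.0 on the 10-base probe and 26.6 on the 13-base probe, against 41.2 and 47.0 in IRI. None of the other mature miRNAs in the RefSeq table of 1679 holds the stretch that any of the 4 probes pairs with. Only exact matches were searched, and binding of near matches or of other RNAs was not tested. The last 7 bases of miR-188-5p, UGGAGGG, do occur inside miR-1904, miR-6368 and miR-671-5p, away from their 3′ ends. Their log2 changes were 0.04 ± 0.13, -0.52 ± 0.08 and 0.05 ± 0.20 (SE), and the lone call was a fall, that of miR-6368 (adjusted p = 0.00133, limma). The 7 shared bases are fewer than the probes pair with, so these changes cannot decide whether the probes bind such miRNAs.

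**Figure D2:**
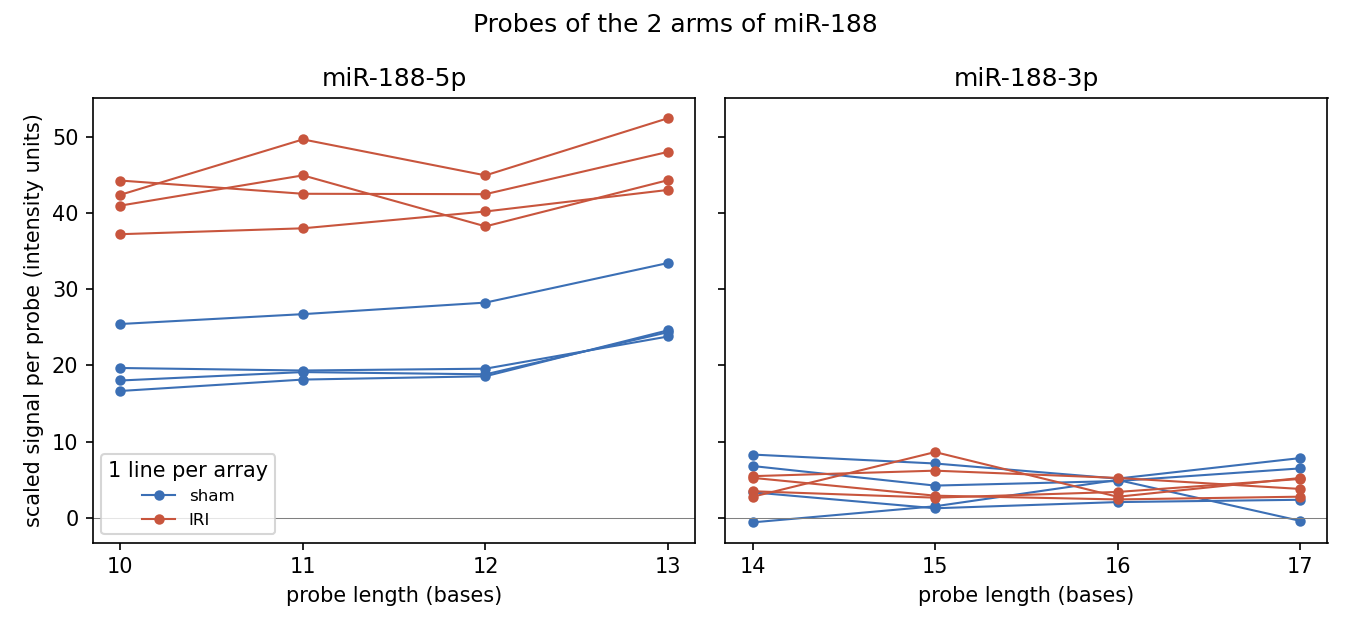
Scaled signal per probe against probe length in bases for miR-188-5p (left) and miR-188-3p (right), with 1 line per sham (blue) or IRI (red) array. On each miR-188-5p probe the 4 IRI points lie above the 4 sham points, with folds of 1.78 to 2.12, while the miR-188-3p points of both groups mix at or below 8.63.

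Across the array, miRNAs read with short probes were called higher more often than the rest. The groups were cut at the longest probe of miR-188-5p, which is itself counted among the short-probe miRNAs called higher. Of the 43 tested miRNAs whose longest probe had at most 13 bases, 11 (25.6%) were called higher and 5 (11.6%) lower, with a median log2 change of 0.33. Of the other 336, 35 (10.4%) were higher and 134 (39.9%) lower, with a median of -0.17. The part of probe length in the miR-188-5p result was not tested. Some blood markers were also higher in IRI: 3 of 3 red blood cell miRNAs were called higher, against 12.1% of all tested miRNAs. The summed signal of the red blood cell miRNAs was 41.1 to 902 in sham and 2940 to 4087 in IRI. Of 6 leukocyte miRNAs 1 was higher, 0 lower and 5 not called, with sums of 622 to 782 in sham and 814 to 1173 in IRI. The part of these cells in the result was not tested either.

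From the opposite arm of the same hairpin no signal was detected. miR-188-3p was detected on 0 of 8 arrays, with summed signals of 5.48 to 28.4 in sham and 13.3 to 20.7 in IRI, which overlap. The rise of the 5p arm therefore has no measured counterpart on the 3p arm at this sensitivity.

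miR-362-3p, whose hairpin lies downstream of miR-188, was steady within each group. Its scaled signals were 98.0, 87.5, 93.1 and 85.2 on sham 1, 2, 3 and 6, and 72.1, 74.4, 70.7 and 72.3 on IRI 1, 2, 3 and 18. All IRI arrays lay below all sham arrays, as was so for 35.9% of tested miRNAs. The means were 91.0 ± 5.77 in sham and 72.4 ± 1.51 in IRI (SD, n = 4), and the signal fell by 0.33 ± 0.06 on the log2 scale (SE; 95% interval -0.47 to -0.18; adjusted p = 0.00386, limma). Its probes of 19 and 20 bases had log2 changes of -0.36 and -0.30. The fall is one relative to the array, since the log2 change was -0.02 without scaling (adjusted p = 0.921, limma) and -0.0046 with the spike-ins (adjusted p = 1, limma).

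miR-532-5p, from the first hairpin of the order given above, ran much the same course. Scaled signals were 59.7, 55.6, 59.4 and 53.4 on sham 1, 2, 3 and 6, and 47.0, 46.8, 43.8 and 47.6 on IRI 1, 2, 3 and 18. The groups did not overlap, and the lowest array was IRI 3. The means were 57.0 ± 3.05 in sham and 46.3 ± 1.69 in IRI (SD, n = 4), and the signal fell by 0.30 ± 0.06 on the log2 scale (SE; 95% interval -0.44 to -0.16; adjusted p = 0.00541, limma). Its probes of 16 and 17 bases changed by -0.34 and -0.28. Without scaling the change was 0.0032 and with the spike-ins 0.02, neither called, so the direction of this fall too holds only relative to the array.

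miR-500-3p, from the last hairpin of that order, did not separate the groups. Scaled signals were 199, 170, 198 and 179 on sham 1, 2, 3 and 6, and 152, 184, 160 and 170 on IRI 1, 2, 3 and 18. The groups overlapped, with IRI 2 above sham 2 and sham 6. The means were 186 ± 14.4 and 166 ± 13.9 (SD, n = 4), for a log2 change of -0.17 ± 0.09 (SE; 95% interval -0.36 to 0.03; adjusted p = 0.147, limma). The sign was positive without scaling (0.14) and under the spike-ins (0.16). The interval leaves room for a fall as large as that of miR-362-3p.

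miR-501-3p, which shares its seed with miR-500-3p, gave no signal above background. Its summed signal was -17.4 to -7.75 in sham and -10.6 to -4.88 in IRI, negative because background is subtracted. The 4 probes of miR-501-3p did not exceed 2.57 on any array. Of the members that share this seed, miR-500-3p was thus detected on 8 of 8 arrays and miR-501-3p on 0 of 8.

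The remaining arms sat at the edge of detection. miR-362-5p had scaled signals of 26.0, 22.8, 31.7 and 16.9 on sham 1, 2, 3 and 6, and 21.0, 20.5, 20.0 and 20.2 on IRI 1, 2, 3 and 18. Detection held on 3 of 4 sham arrays, all but sham 6, and on 4 of 4 IRI arrays, and the sham values spread on both sides of the IRI values. The log2 change was -0.23 ± 0.17 (SE; adjusted p = 0.295, limma), and without sham 6 it was called lower (-0.38, adjusted p = 0.0186, limma). Nearly all of its signal came from its probes of 17 and 18 bases, the other 2 lying between -4.65 and 0.53.

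miR-532-3p had scaled signals of 26.2, 21.3, 22.1 and 10.3 on sham 1, 2, 3 and 6, and 22.7, 19.9, 18.3 and 16.3 on IRI 1, 2, 3 and 18. Again sham 6 was the array without detection (3 of 4 sham, 4 of 4 IRI), and the groups overlapped. The log2 change was -0.14 ± 0.14 (SE; adjusted p = 0.419, limma), with 2 arrays raised to the floor of 17.3. Most of this signal came from the 15-base probe, at 19.5 ± 2.85 in sham and 18.1 ± 1.44 in IRI (SD, n = 4).

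Other arms of the cluster add no measurable member. Of 8 further arms listed, miR-188-3p, miR-500-5p and miR-501-5p were read, and each was detected on 0 of 8 arrays; the arms of miR-502a, miR-502b and the 3p arm of miR-660 were not analysed here.

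Members were next compared within arrays, which removes the scaling between them: the log2 ratio of 2 members on the same array does not depend on it. The question was whether members of the cluster changed alike. Over the 4 members detected on all 8 arrays there are 6 pairs. The ratio of miR-188-5p to each of the other 3 was higher in IRI, by more than 2-fold, with no overlap between groups. Against miR-362-3p it was -0.33, -0.09, -0.21 and 0.42 on sham 1, 2, 3 and 6, and 1.14, 1.25, 1.25 and 1.39 on IRI 1, 2, 3 and 18. Sham 6 stood closest to the IRI arrays.

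That difference was 1.31 on the log2 scale, or 2.48-fold. Against miR-532-5p the ratio went from 0.62 ± 0.32 in sham to 1.90 ± 0.10 in IRI (SD, n = 4), apart by 1.28 or 2.43-fold. Against miR-500-3p it went from -1.09 ± 0.32 to 0.06 ± 0.08 (SD, n = 4), apart by 1.15 or 2.22-fold. The 3 ratios share miR-188-5p on the same arrays, so they are not independent of each other. Each of these 3 pairs had p = 0.0286 in a two-sided exact permutation test over the 70 splits, the smallest p that this design allows, and 0.0571 after adjustment over the 6 pairs. No pair therefore passed the adjusted threshold of 0.05, while 3 pairs lay below it unadjusted. However far apart the groups were, these 3 pairs could not pass unless a further pair also reached the smallest p. The count is sensitive to small steps: it was 4 with the median over spots (adjusted p = 0.0429, exact permutation test) and 5 without IRI 1 (adjusted p = 0.0343, exact permutation test). The pairs added there lack miR-188-5p: miR-362-3p over miR-500-3p in both settings, and miR-500-3p over miR-532-5p without IRI 1. With normexp background correction the 3 differences with miR-188-5p were smaller, at 0.45 against miR-362-3p, 0.43 against miR-532-5p and 0.35 against miR-500-3p. Within slide columns the 3 ratios with miR-188-5p were higher in IRI in 4 of 4 columns.

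**Figure D3:**
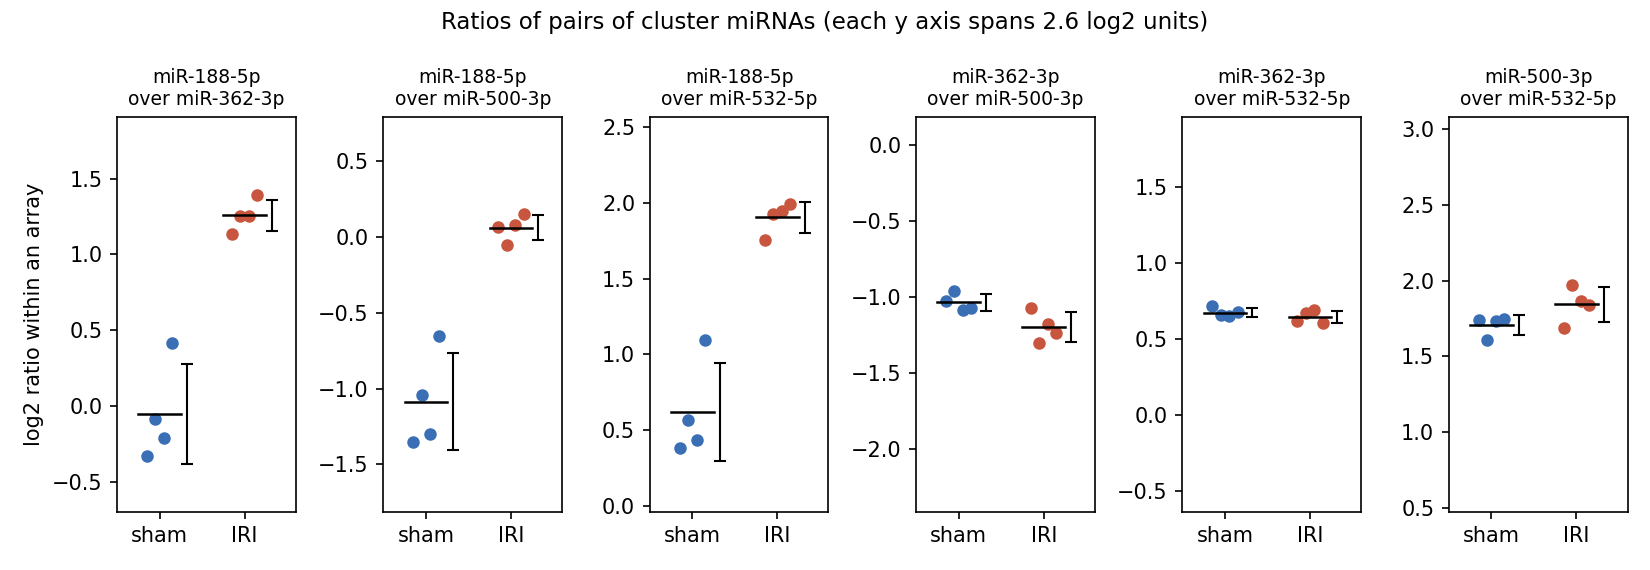
Within-array log2 ratio of each of the 6 member pairs on 4 sham (blue) and 4 IRI (red) arrays, with group means and SD bars; all y axes span an equal length. The 3 ratios with miR-188-5p on top separate the groups by 1.15 to 1.31, while the ratio of miR-362-3p to miR-532-5p differs by -0.03.

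The pairs without miR-188-5p moved less. miR-362-3p over miR-532-5p was 0.67 ± 0.03 in sham and 0.65 ± 0.04 in IRI (SD, n = 4), which differ by -0.03 (exact permutation test, two-sided, p = 0.314). The array values ran from 0.65 to 0.72 in sham and from 0.60 to 0.69 in IRI, so the ranges overlapped. miR-362-3p over miR-500-3p differed by -0.16 (exact permutation test, two-sided, p = 0.0571, adjusted 0.0857) and miR-500-3p over miR-532-5p by 0.13 (p = 0.114, adjusted 0.137). Within slide columns the difference for miR-362-3p over miR-500-3p ran from -0.35 to -0.05, lower in IRI in every column. It ran from -0.05 to 0.36 for miR-500-3p over miR-532-5p and from -0.10 to 0.04 for miR-362-3p over miR-532-5p. The p-values above do not show that the 3 members changed equally.

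For 2 hairpins both arms were detected on at least some arrays. The log2 ratio of miR-532-5p to miR-532-3p was 1.41 ± 0.18 in sham and 1.25 ± 0.17 in IRI (SD, n = 4), or -0.16 apart. The ratio of miR-362-5p to miR-362-3p was -1.93 ± 0.31 in sham and -1.83 ± 0.03 in IRI (SD, n = 4), or 0.10 apart. Both differences are smaller than the SD of the sham arrays. No test was made because the dimmer arm of each was not detected on sham 6, where it entered at the floor of 17.3. Without sham 6 the difference was -0.08 for miR-532 and -0.03 for miR-362, whose sign thus turned, and without sham 3 that of miR-362 was 0.23. Without IRI 1 that of miR-532 was -0.09.

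Array-to-array deviations within groups were also compared among members. Over the 8 arrays, deviations from the group means correlated at r = 0.85 between miR-362-3p and miR-532-5p, 0.73 between miR-362-3p and miR-500-3p, and 0.59 between miR-500-3p and miR-532-5p. With miR-188-5p they correlated at -0.62, -0.57 and -0.06 for miR-362-3p, miR-532-5p and miR-500-3p. For miR-188-5p sham 6 lay far from its group, at 114 against 78.0 to 82.4 on the other sham arrays. The correlations with miR-188-5p therefore lean on that array, and they were not recomputed without it. The points share 8 arrays and their scaling factors, and the values describe these arrays only.

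Outside the cluster, the mean log2 signal of the 4 members was most like that of miR-1894-3p (Pearson r = 0.93), miR-466f-3p (0.92), miR-466i-3p (0.88), miR-19a-3p (0.87) and miR-3535 (0.85), among 313 candidates over 8 arrays. By deviations from the group means the leaders were miR-1894-3p (0.92), miR-30c-2-3p (0.91), miR-466f-3p (0.90), miR-6987-5p (0.89) and miR-19a-3p (0.86). The mean of the members joins 1 riser with lower neighbours and stayed between 6.50 and 6.69 on all arrays, so it is a profile with little spread.

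Other miRNA sets give the setting of these changes. Of 9 tested miRNAs on a chosen list from other places on X, 0 were higher, 5 lower and 4 not called (limma, adjusted p below 0.05). Their changes ran from -0.50 to 0.10, with a median of -0.34. The list does not cover all of X. The opposite arm of the listed miR-652-3p, miR-652-5p, was left out and had a change of -0.65 (adjusted p = 0.000879, limma). The tested miRNAs listed for the miR-23b cluster were lower in 3 of 3, with a median of -0.36. One of them, miR-24-3p, does not tell the miR-24-1 hairpin from the miR-24-2 hairpin, so it cannot be assigned to this cluster alone. The listed miR-24-1-5p was not tested. Those of miR-192 and miR-194, abundant in tubules, were lower in 3 of 3, with a median of -0.71. Of all tested miRNAs 36.7% were called lower, a share that moves with the scaling. These lists are described and were not tested against the Clcn5 cluster.

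**Figure D4:**
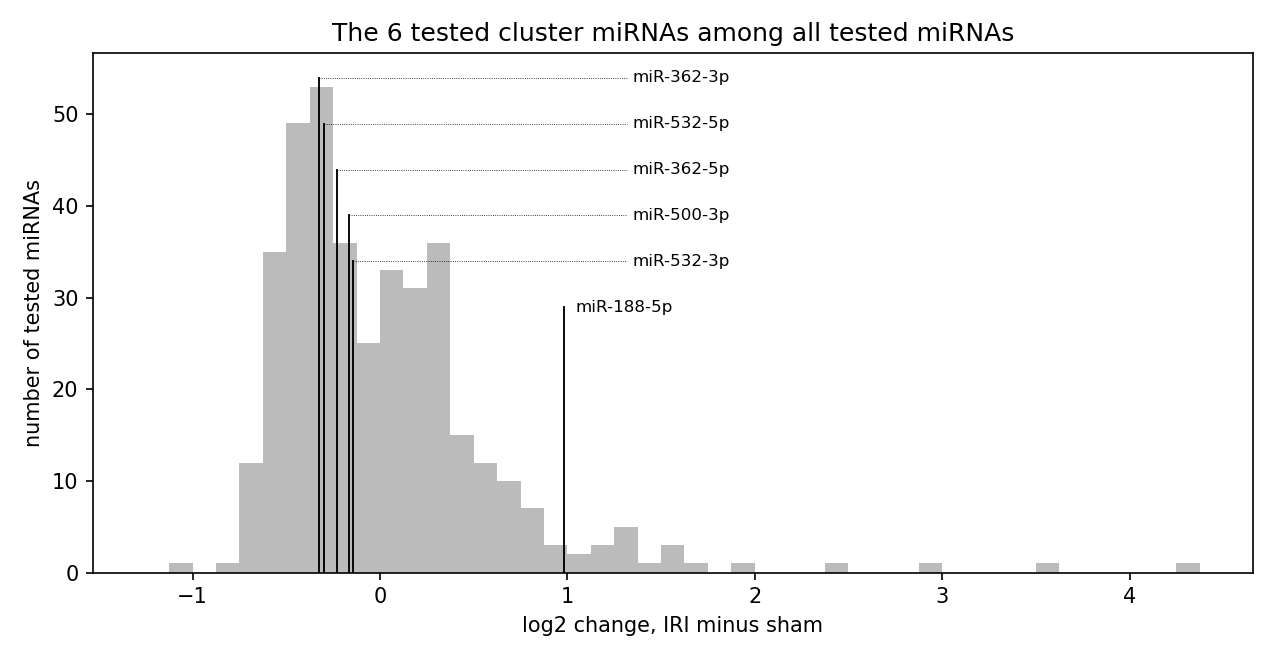
Number of tested miRNAs (of 379) by log2 change in IRI against sham, with vertical lines at the 6 tested members. miR-188-5p stands at 0.98, and the other members lie between -0.33 and -0.14, near the median of -0.11.

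How far the members' directions rest on the scaling differed between them. miR-188-5p was higher under every scaling tried, from 0.87 with the percentile over all miRNAs to 1.31 with the spike-ins. Scaling to the other 3 members detected on all arrays, an alternative chosen after seeing the data, gave 1.25 ± 0.15 (SE; adjusted p = 0.000876, limma). The other 5 tested members lay between -0.03 and 0.16 with no scaling or the spike-ins, and between -0.44 and -0.13 with either percentile or with quantile normalization.

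**Figure D5:**
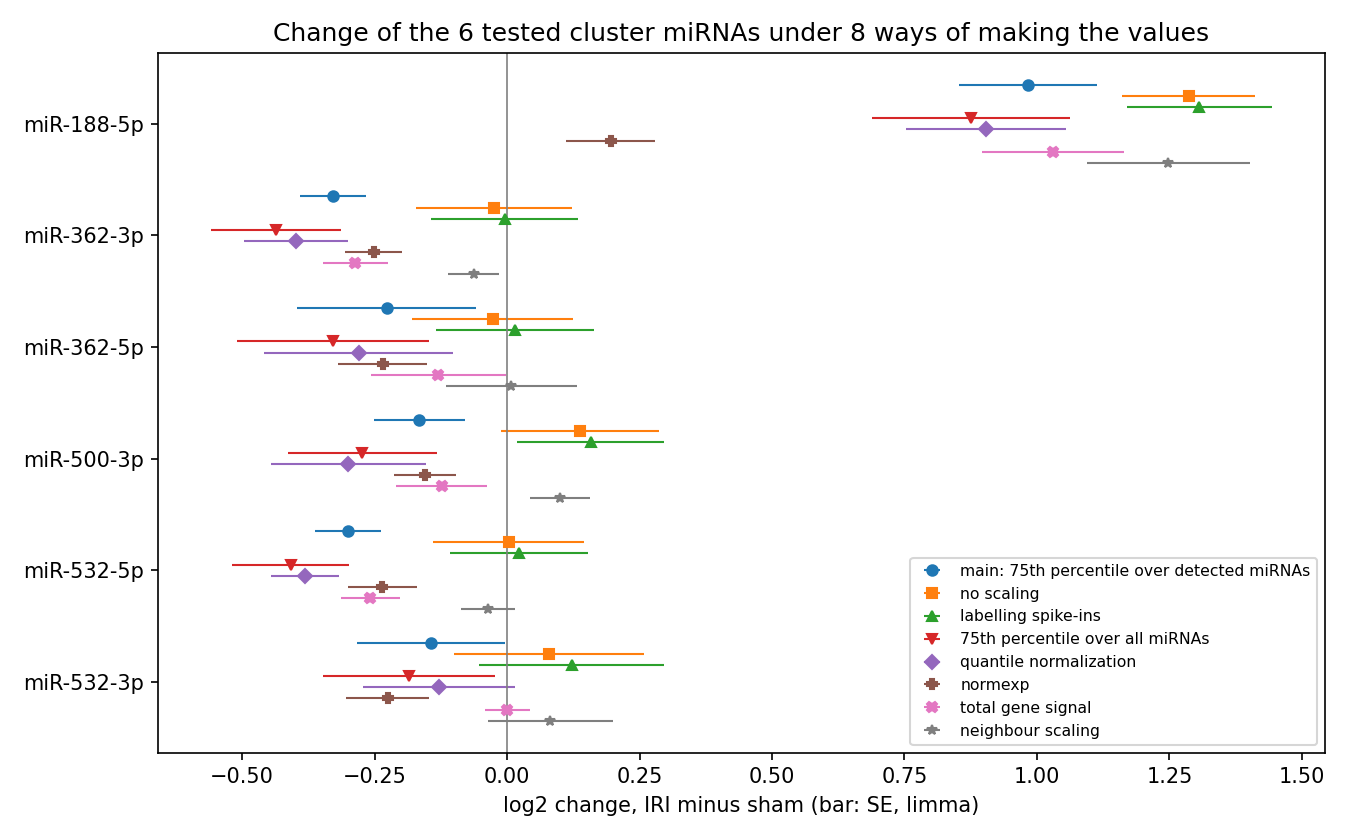
Log2 change in IRI against sham, with SE bars, of the 6 tested members under 8 ways of making the values. miR-188-5p lies between 0.87 and 1.31 in all but normexp background correction (0.20), while the others lie at or below 0.16 and on both sides of 0.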

How the data were processed

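Spot intensity values in the deposited scanner files are linear and background-subtracted per the file headers; the submitters' processing notes name Agilent Feature Extraction 12.0.3.1. A deposited value table gives each miRNA as a linear ratio; matched to the scanner files, it follows the software's total gene signal (r = 1 for log2 differences between arrays), while its scale and centring are not given in the sources used here. Its column medians were 0.859, 1.23, 1.29 and 1.30 for sham and 0.658, 0.646, 1.16 and 0.749 for IRI, and it served as an alternative.

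Control and outlier spots (1422 to 1560 per array) were left out, and 0 spots were saturated. A probe's processed signal was the mean of its spots, and a miRNA's the sum of its probes. Scaling used each array's 75th percentile over 317 miRNAs that all 8 arrays detected, with the geometric mean of these percentiles as common level. Values under 17.3, the 5th percentile of detected signals, were set to it before log2. For 379 miRNAs, those with detection on 4 of 4 arrays in either group, limma 3.58.1 was run in R 4.3.3 (lmFit, eBayes, two-sided, Benjamini-Hochberg, threshold 0.05). Ratios within arrays used the same values and exact permutation tests. The fit was also run on simulated data with independent noise. That run had no scaling or floor, so it does not bear on calls that depend on them. Precision is limited by 4 arrays per group.

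The members and lists were chosen with earlier results of these data known. All 8 members, further arms of the cluster, the 5 miRNAs most like the members by each measure and the comparison lists are named. Alternatives covered scaling, background correction, probe summary, filter, floor, blocks and leaving out each array. The files were annotated to mm9 per the file headers, so no coordinates are printed, and RefSeq (GRCm38.p6) gave sequences, order and gaps only.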

Additional observations from a re-analysis of the deposited data

Results flagged for a closer look

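Among the sham arrays, miR-188-5p on sham 6 had a scaled signal of 114, with the other 3 sham arrays between 78.0 and 82.4. Its gap to the nearest of them, divided by the range of the group, exceeded Dixon's 95% critical value for 4 samples. Of 12 groups of member values checked this was the only such array. Chance alone gives such an array in about 1 in 20 groups, so with 12 groups checked a single flag is not rare. Without sham 6 the log2 change of miR-188-5p was 1.11.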

How the results depend on the processing

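miR-188-5p was higher in all 26 other settings (log2 change 0.20 to 1.31) and called in 25 (exception: normexp, adjusted p = 0.0831, limma). Leaving out each array gave 0.93 to 1.11. Calls over all miRNAs (185) were 54 without scaling (53 higher, 1 lower), 74 with the spike-ins, 111 when all miRNAs on the array were tested, 67 with the replicate block, 115 with scaling to the neighbours (82 higher, 33 lower; added after seeing the data), and 153 to 190 leaving out each array; normexp gave 18 higher and 159 lower. Members called lower (2) were 0 without scaling, with the spike-ins, the replicate block and the neighbours, 4 with normexp, and 2 to 3 leaving out each array; members called higher (1) were 0 with normexp. Pairs called (0) were 4 with the median over spots and 0 to 5 leaving out each array.

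Directions turned as follows. Without scaling: miR-500-3p 0.14, miR-532-5p 0.0032 and miR-532-3p 0.080. With the spike-ins: miR-362-5p 0.015, miR-500-3p 0.16, miR-532-5p 0.023 and miR-532-3p 0.12. With the neighbours: miR-362-5p 0.0083, miR-500-3p 0.10 and miR-532-3p 0.082. miR-532-3p was 0.013 with the mean of log2 over probes and 0.023 without a floor. The miR-362 arm difference (0.10) was -0.03 without sham 6 and -0.02 with the replicate block. With the deposited value table miR-362-5p was 0.70 and miR-532-3p 0.75, and the arm differences were 1.09 (miR-362) and -1.10 (miR-532); the software gives undetected miRNAs, here sham 6, a total gene signal of 0.1. Other causes were not tested. Deviations from the group means correlated at r = -0.09, -0.14 and 0.28 between sham and IRI arrays with equal replicate numbers 1 to 3. Arrays with unequal numbers ran from -0.41 to 0.59, so these values cannot decide whether the numbers pair the arrays. The replicate block used numbers 1 to 3 only and left out sham 6 and IRI 18. With it miR-188-5p stayed called (1.07, adjusted p = 0.0306, limma). Calls were lost for miR-362-3p (-0.36, adjusted p = 0.0635, limma) and miR-532-5p (-0.34, adjusted p = 0.0624, limma). Signal over background limits miR-362-5p, miR-532-3p and miR-501-3p.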
